A study of Saccharomyces cerevisiae with 4 samples.

Results

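The genes described are those of the yeast proteasome, 18 for the regulatory particle and 14 for the core particle, together with RPN4, which encodes their transcriptional activator. They were taken by name as subunits of the complex and its activator, with earlier results of these data known, and all 33 had a probe set, out of 5449 Saccharomyces cerevisiae genes tested. Transcript levels had been measured on 4 Affymetrix expression arrays, 2 for each group. All samples were BY4741, a wild-type haploid lab strain of a mating type, grown in YPD medium, with a culture age of 8 h in the labels. The honokiol group had received 12 µg/mL HNK for 2 h, and the ethanol group the same volume of ethanol, the solvent. HNK is honokiol, a biphenolic compound from magnolia bark. The sample titles call the replicates biological.

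The proteasome is the protease that breaks down proteins tagged with ubiquitin. A barrel-shaped core, built from alpha rings and beta rings, holds the cutting sites inside, and the regulatory particle on its end recognises, unfolds and feeds in the substrate. The base of that particle carries a ring of ATPases (Rpt proteins), and the lid carries the enzyme that removes ubiquitin. In S. cerevisiae the factor Rpn4 activates most subunit genes and is itself a short-lived substrate of the proteasome, which gives a feedback loop. The transcription factors Yap1, Pdr1, Pdr3 and Hsf1 are known to act on the RPN4 promoter.

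Levels are given as log2 intensity, and differences as honokiol minus ethanol on that log2 scale with the standard error (SE) of limma's fit over all genes. A gene was called when its Benjamini-Hochberg adjusted p over the 5449 genes was under 0.05. The arrays of a group correlated at 0.998 (honokiol) and 0.995 (ethanol) over genes, while correlations between the groups were 0.959 to 0.970. The labelled mating type a was checked by its markers, and STE2, MFA1, MFA2 and BAR1 lay between 10.89 and 13.52. Of 3 alpha-cell markers, the pheromone gene MF(ALPHA)1 lay below the background level of 4.39 on all arrays, while the pheromone gene MF(ALPHA)2 (5.45 to 6.58) and the receptor gene STE3 (7.14 to 7.98) lay above it on all arrays. Of the genes deleted in BY4741, URA3 lay between 2.73 and 3.10, LEU2 between 4.28 and 4.48 and MET17 between 4.41 and 4.56, near or below background. HIS3, of which the strain's allele lacks only a part, lay between 10.70 and 11.05. Some of these markers differed between the groups. BAR1, MFA1, STE2 and HIS3 were called lower with honokiol (-1.15, -0.69, -0.42 and -0.33), and STE3 was called higher (0.59). The other markers were not called, and over all tested genes 48.9% were called. The mean log2 ratio of 5' to 3' probe sets over 7 control transcripts, a sign of RNA integrity and labelling, was -1.18 and -1.22 on the honokiol arrays, -1.31 on ethanol 1 and -1.67 on ethanol 2. Both honokiol arrays lay above both ethanol arrays, so this ratio and the treatment cannot be fully told apart.

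RPN4 rose with honokiol, while 28 of the 32 subunit genes were not called, against 2786 of all 5449 tested genes. RPN4 (YDL020C) had a log2 intensity of 11.88 on honokiol 1 and 11.81 on honokiol 2, against 10.72 on ethanol 1 and 10.77 on ethanol 2. Both honokiol arrays lay above both controls by far more than the arrays of a group differed from each other. The difference was 1.10 ± 0.06 (SE, n = 2 per group), a 2.14-fold rise (limma adjusted p = 0.00131). It ranked 168 of 5449 from the largest rise downwards, so 3.06% of tested genes had a larger difference. In RNA from whole cultures a change in some cells and a smaller change in every cell cannot be told apart. RPN4 was called in the main setting and in all 15 alternatives, with a difference between 1.06 and 1.13.

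Of the 33 genes, 5 were called higher with honokiol and 0 lower (limma), against 48.9% of all tested genes called, 23.9% higher and 25% lower. Besides RPN4 the called genes were the core subunits PUP3, PRE3 and PRE8 and the regulatory subunit RPN13. At an unadjusted p under 0.05, 7 of the 33 passed, against 3122 of the 5449 tested genes. The count called lower was 1 with an intensity trend and a robust prior (RPT4), 1 with the gene length trend removed (PRE7) and 2 without ethanol 1 (RPN1 and RPT3). It was 0 in the other alternatives. The count called higher ranged from 2, with RPN4 and PUP3 alone, to 8. The 2 stood with all probe sets as features, where 872 of 10715 features were called higher. It also stood after adjustment for the control 5'/3' ratio, where 931 of 5449 genes were. Without honokiol 1 or without honokiol 2 the same lowest count stood, with fewer of all genes called as well. The 8 stood with quantile normalization applied again and with the trended, robust prior, where 1252 and 1439 of the 5449 genes were called higher.

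The subunit genes formed a narrow group. Their differences had a median of 0.031 and an SD over the 32 genes of 0.18, while those of all tested genes had a median of 0.0052 and an SD of 0.49. Only PUP3 among the 32 differed by more than 0.5, a size that 22.4% of all tested genes passed. The 95% intervals of the 28 genes that were not called all lay between -0.41 and 0.46, so a change of 0.5 or more was outside the interval for each of them. The subunits were also measured with little spread, since the SD over subunits of the difference between replicate arrays was 0.071 for honokiol and 0.076 for ethanol, against 0.12 and 0.21 over all genes. The honokiol arrays lay on one side of both controls for 24 of the 33 genes (16 above and 8 below), against 80.2% of all tested genes.

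**Figure D1:**
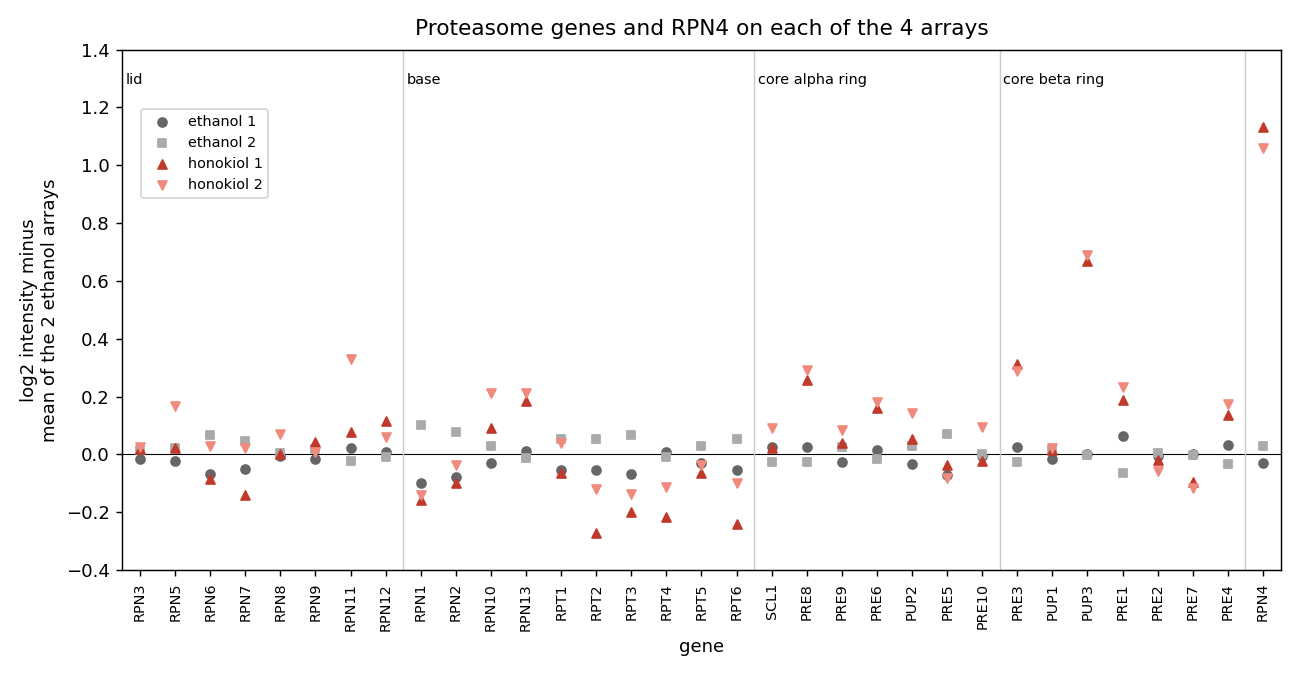
Each column is a gene and each point an array; the vertical axis is log2 intensity minus the mean of the 2 ethanol arrays for that gene. RPN4 and PUP3 have both honokiol arrays far above the controls, and the other genes lie within 0.4 of the control mean.

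Among the core genes, the beta ring held the largest rise. PUP3, a beta subunit without a cutting site of its own, stood at 11.94 and 11.96 with honokiol and at 11.27 on each ethanol array. The groups were far apart and the replicates of each nearly coincided. Its difference was 0.68 ± 0.06 (SE, n = 2 per group), or 1.60-fold (limma adjusted p = 0.00212), and it was called in all 15 alternatives, with a difference between 0.56 and 0.73.

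PRE3, which encodes the beta subunit with caspase-like activity, stood at 12.14 and 12.11 with honokiol and at 11.85 and 11.80 with ethanol. Its arrays did not overlap between the groups, and it rose 1.23-fold (0.30 ± 0.06, limma adjusted p = 0.0147). The genes of the other cutting subunits were not called. PUP1, for trypsin-like activity, differed by 0.019 (95% interval -0.13 to 0.17, limma adjusted p = 0.796), and PRE2, for chymotrypsin-like activity, by -0.039 (-0.19 to 0.11, limma adjusted p = 0.601). Whether PRE3 differed more than PUP1 or PRE2 was not tested. The other beta subunit genes had differences of 0.21 for PRE1, 0.16 for PRE4 and -0.11 for PRE7. The unadjusted 95% interval of PRE1 excluded 0 (0.027 to 0.40), but its adjusted p was 0.0622 by limma.

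In the alpha ring, which gates entry to the core, 1 of 7 genes was called, against 48.9% of all tested genes. PRE8 stood at 11.81 and 11.85 with honokiol and at 11.58 and 11.53 with ethanol. Both honokiol values were above both controls, and it rose 1.21-fold (0.27 ± 0.06, limma adjusted p = 0.0192). PRE6 came next at 0.17 (95% interval 0.024 to 0.32, limma adjusted p = 0.0603). PUP2 differed by 0.099, PRE9, the core gene that yeast can live without, by 0.062, SCL1 by 0.056, PRE10 by 0.036 and PRE5 by -0.058. The adjusted p-values of these 5 genes lay between 0.266 and 0.682.

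PRE3 and PRE8 were not called without honokiol 1 (limma adjusted p = 0.126 and 0.124) or without honokiol 2 (0.105 and 0.147), where the spread comes from the ethanol pair alone. After adjustment for the control 5'/3' ratio their adjusted p was 0.0581 and 0.0741.

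**Figure D2:**
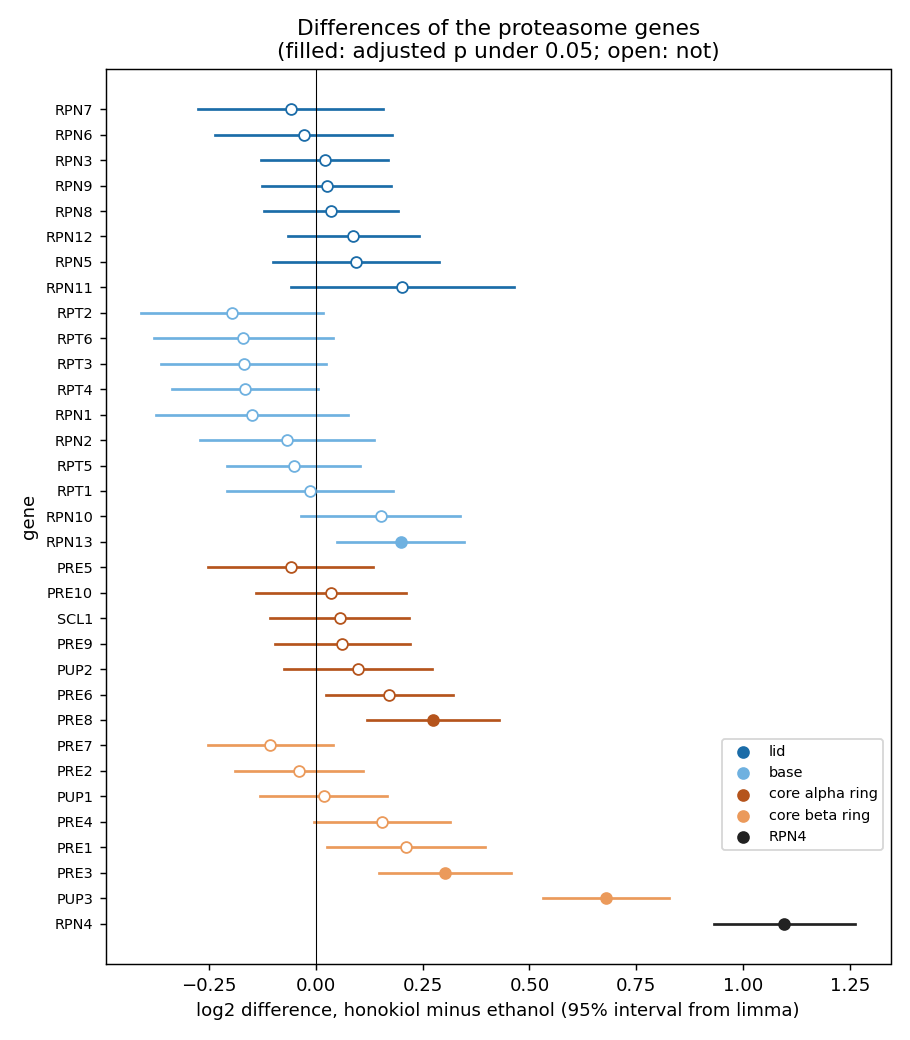
Points are log2 differences, honokiol minus ethanol, and lines their 95% intervals from limma, for the 33 genes sorted within lid, base, alpha ring, beta ring and RPN4; filled points have an adjusted p under 0.05. The 5 filled points are RPN4, PUP3, PRE3, PRE8 and RPN13, and the intervals of the other genes lie between -0.41 and 0.46.

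In the base of the regulatory particle 1 of 10 genes was called, against 48.9% of all tested genes. RPN13, a ubiquitin receptor, stood at 10.75 and 10.78 with honokiol and at 10.58 and 10.56 with ethanol. The groups did not overlap, and it rose 1.15-fold (0.20 ± 0.06, limma adjusted p = 0.0416). The call was lost without each of honokiol 1, honokiol 2 and ethanol 2, and under the replicate block (limma adjusted p = 0.0569). It was also lost with the gene length trend removed and after adjustment for the control 5'/3' ratio (limma adjusted p = 0.422 and 0.130). RPN13 was called in 9 of 16 settings, the main one included. RPN10, another ubiquitin receptor, differed by 0.15 (95% interval -0.034 to 0.34, limma adjusted p = 0.137).

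The ATPase genes of the base had negative differences in 6 of 6 cases, although none was called. RPT2 was at 10.86 and 11.01 with honokiol and at 11.08 and 11.18 with ethanol, a difference of -0.20 ± 0.08 (limma adjusted p = 0.106). RPT6 differed by -0.17, RPT3 by -0.17, RPT4 by -0.17, RPT5 by -0.052 and RPT1 by -0.013. Both honokiol arrays were below both controls for 5 of these 6 genes, RPT1 being the exception, where 80.2% of all tested genes had no overlap between the groups (2193 of 5449 below). None reached an unadjusted p under 0.05. RPT4 passed with an intensity trend and robust prior (limma adjusted p = 0.044). RPT3 passed only without ethanol 1, where the spread comes from the honokiol pair alone. The median of the 6 was -0.17, and -0.15 with the gene length trend removed. After adjustment for the control 5'/3' ratio it was -0.065. RPT1 changed sign in both of these settings, to 0.0068 with the length trend removed and to 0.083 after the ratio adjustment. The difference of RPT5 reached 0.012 at its highest over the alternatives. The large scaffold subunits of the base gave -0.15 for RPN1 and -0.067 for RPN2 (limma adjusted p = 0.208 and 0.510).

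In the lid 0 of 8 genes passed limma's test, against 48.9% of all tested genes. None of the 8 had an unadjusted p under 0.05, against 3122 of 5449 tested genes, and none was called in any alternative. RPN11, the deubiquitinating enzyme that strips ubiquitin from substrates, stood at 10.93 on honokiol 1 and 11.18 on honokiol 2, against 10.88 and 10.83 with ethanol. Here the honokiol arrays were 0.25 apart, and the difference of 0.20 ± 0.10 did not pass (limma adjusted p = 0.152). RPN8, its partner in the lid, differed by 0.036. The lid subunits RPN5, RPN6 and RPN7 differed by 0.095, -0.028 and -0.059, and RPN3, RPN9 and RPN12 by 0.021, 0.026 and 0.088.

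Between the particles the contrast was small. The median difference was 0.081 over the 14 core genes and -0.021 over the 18 regulatory genes, with 3 and 1 of them called higher (21.4% and 5.56%, against 23.9% of all tested genes). By list the medians were 0.062 for the alpha ring, 0.16 for the beta ring, 0.031 for the lid and -0.11 for the base. With the gene length trend removed the alpha ring median was -0.029 and the beta ring median 0.068. The base median was -0.035 without ethanol 2, -0.015 with the gene length trend removed and 0.0042 after adjustment for the control 5'/3' ratio. For each array, the median deviation of core genes from their 4-array means, minus that of regulatory genes, was 0.056 on honokiol 1, 0.070 on honokiol 2, -0.015 on ethanol 1 and -0.094 on ethanol 2. The ethanol arrays were about as far from each other in this measure as ethanol 1 was from honokiol 1, and subunits of 1 complex are not replicates, so no test was made.

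Gene length moved with this contrast. The median annotated length was 764.5 bases for core genes and 1297.5 bases for regulatory genes. Over all 5449 genes the Spearman correlation of the difference with length was -0.29, and over the 32 subunit genes it was -0.61, given as descriptions, since all points share the same 4 arrays. Over 4 length classes of nearly equal size the median difference of all genes was 0.14 for the shortest class, then 0.044 and -0.026, and -0.17 for the longest. With a smooth trend on length removed from each array, an alternative chosen after seeing the data, the medians were -0.0099 for core and 0.0051 for regulatory genes. RPN13, the shortest regulatory gene at 471 bases, then differed by 0.059 (limma adjusted p = 0.422). RPN4, PUP3, PRE3 and PRE8 were still called higher (limma adjusted p = 0.000682, 0.00229, 0.0275 and 0.0435), and PRE7 was called lower at -0.20 (0.0357).

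**Figure D3:**
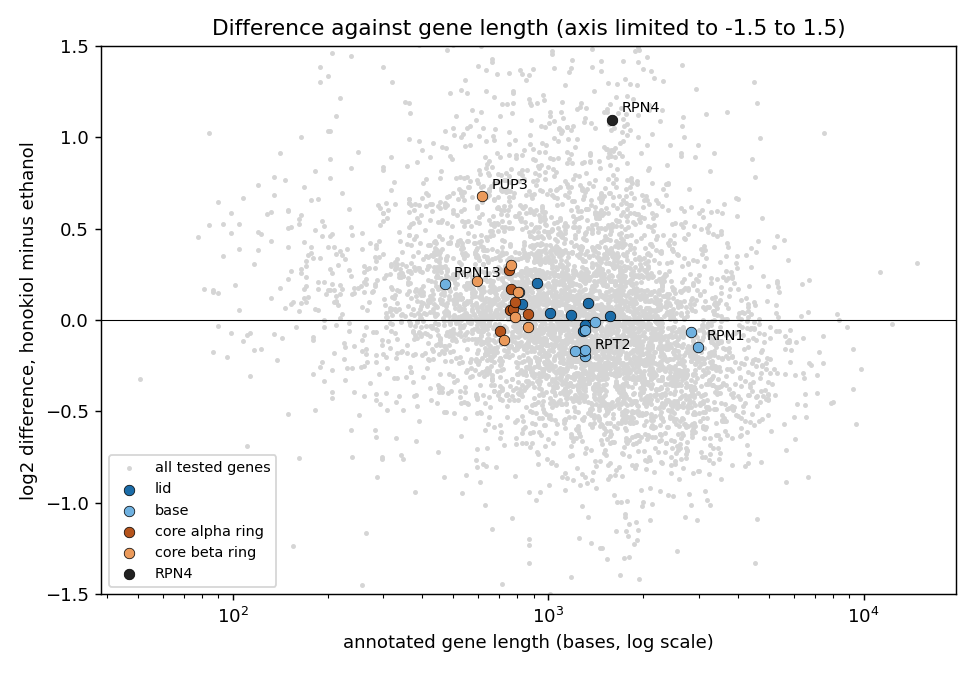
Log2 difference, honokiol minus ethanol, against annotated gene length in bases on a log axis; grey points are all tested genes with a difference between -1.5 and 1.5 and coloured points the 33 proteasome genes. Core genes (orange and brown) sit at shorter lengths than most regulatory genes (blue), and RPN4 and PUP3 stand above the other coloured points.

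**Figure D4:**
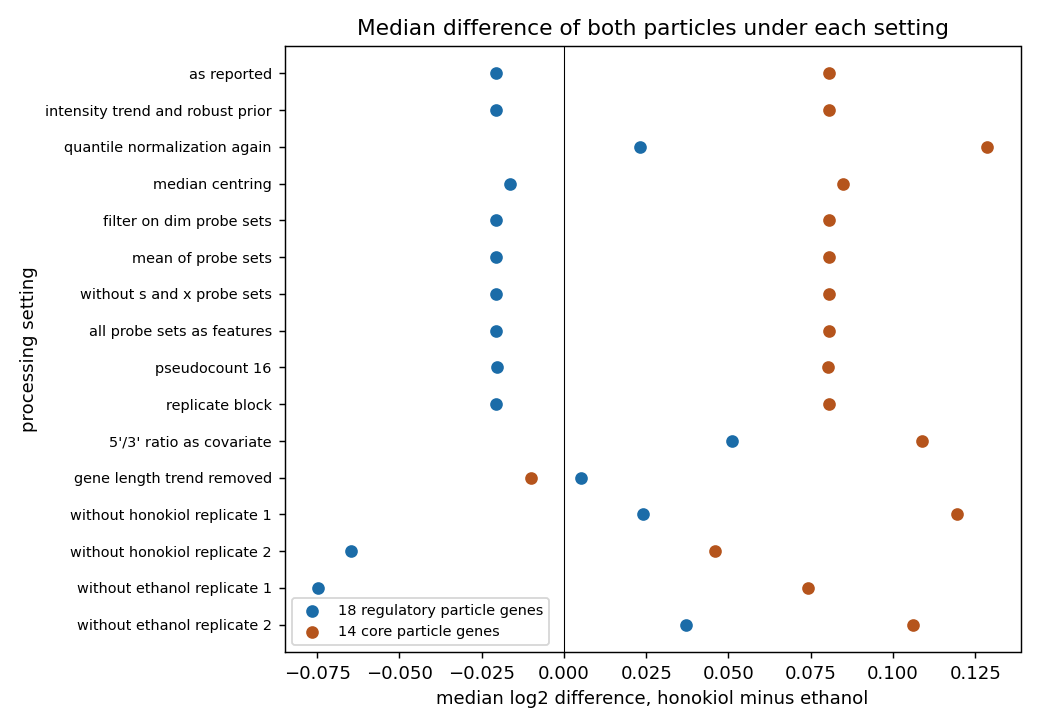
Median log2 difference, honokiol minus ethanol, of the 18 regulatory and the 14 core genes under each processing setting. The core median is the higher one in each setting except with the gene length trend removed, where it is -0.0099 against 0.0051.

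The genes around RPN4 divided into regulators that rose and regulators that were not called. Called higher were 2 of 4 genes for factors acting on the RPN4 promoter (50%) and 1 of 3 genes for Rpn4 turnover (33.3%). Over all tested genes 48.9% were called, and 23.9% were called higher. Larger rises than those of PDR3 and YAP1 were seen in 5.12% and 12.3% of tested genes. PDR3, a drug resistance factor that activates RPN4, was at 10.20 on both honokiol arrays and at 9.27 and 9.35 with ethanol. The groups were well separated, and it rose 1.85-fold (0.89 ± 0.06, limma adjusted p = 0.00156), called in all 15 alternatives. YAP1, the oxidative stress factor, was at 9.71 and 9.83 with honokiol and at 9.20 and 9.27 with ethanol. It rose 1.45-fold (0.54 ± 0.07, limma adjusted p = 0.00587), and did not pass without honokiol 2 (0.0583). PDR1, the paralog of PDR3, differed by -0.021 (limma adjusted p = 0.846), and HSF1, the heat shock factor, by -0.039 (0.721). These array values are of transcripts and do not measure the activity of the factors.

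Rpn4 is marked for destruction by the ubiquitin ligase Ubr2 with the adaptor Mub1 and the conjugating enzyme Rad6. RAD6 rose 1.19-fold (0.26 ± 0.07, limma adjusted p = 0.0385), with honokiol values of 10.24 and 10.16 above the ethanol values of 10.00 and 9.89. Its call was lost without honokiol 1, honokiol 2 or ethanol 2, and with the length trend removed (limma adjusted p = 0.136). After adjustment for the control 5'/3' ratio RAD6 differed by 0.16 and was not called (limma adjusted p = 0.187). It was called in 10 of 16 settings, the main one included. MUB1 differed by 0.27 (limma adjusted p = 0.0994) on ethanol arrays that were 0.29 apart, and by 0.41 without ethanol 1. It differed by 0.13 without ethanol 2 and by 0.049 after adjustment for the control 5'/3' ratio (adjusted p = 0.662). UBR2 differed by -0.087 (limma adjusted p = 0.572).

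Among genes that help the proteasome assemble, or cap it, the calls made were of lower levels. Of 15 measured genes 0 were called higher and 5 lower (33.3%, against 25% of all tested genes called lower), with a median difference of -0.047 that became -0.15 with the gene length trend removed. RPN14, a chaperone for building the base, was at 9.34 and 9.32 with honokiol and at 9.93 and 9.97 with ethanol, so that it fell by 0.62 ± 0.06 (limma adjusted p = 0.00268), called in all 15 alternatives. TMA17, another assembly chaperone, fell by 0.37 (limma adjusted p = 0.00804). ECM29, which holds core and regulatory particle together, fell by 0.57 (limma adjusted p = 0.0395) on ethanol arrays that were 0.46 apart. BLM10, an alternative cap of the core, fell by 0.29 (0.0469). NAS2, another chaperone of the base and named only after its values were seen, fell by 0.20 (0.0444), and was called in 8 of 16 settings, the main one included.

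TMA17, ECM29 and BLM10 did not pass without honokiol 1 (limma adjusted p = 0.0881, 0.176 and 0.182) or honokiol 2 (0.0753, 0.139 and 0.209). BLM10 also did not pass without ethanol 2 (0.074). ECM29 and BLM10 are long genes (5607 and 6432 bases). With the length trend removed ECM29 was still called at -0.37 (limma adjusted p = 0.0321), while BLM10, at -0.096, was not (0.217). After adjustment for the control 5'/3' ratio they differed by -0.20 and -0.14 and did not pass (limma adjusted p = 0.0968 and 0.246). SEM1, the small lid subunit outside the 33 genes, differed by 0.097 (0.509).

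Among genes that carry substrates to the proteasome or act on it, 1 of 6 was called higher and 3 lower, against 23.9% and 25% of all tested genes. HUL5, a ubiquitin ligase bound to the proteasome, was at 9.50 and 9.47 with honokiol and at 10.06 and 10.30 with ethanol. It fell by 0.70 ± 0.10 (limma adjusted p = 0.00612), and did not pass without honokiol 1 or honokiol 2 (0.0559 and 0.0574). The shuttle factor genes DSK2 and DDI1 fell by 0.28 and 0.20 (limma adjusted p = 0.0167 and 0.0495), and CUZ1, a cofactor linking Cdc48 and the proteasome, rose 1.20-fold (0.0229). Without honokiol 1 these 3 had adjusted p = 0.119, 0.198 and 0.122, and without honokiol 2 0.137, 0.266 and 0.167. DDI1 was called in 7 of 16 settings, the main one included. It did not pass with the length trend removed (limma adjusted p = 0.0523) or after adjustment for the control 5'/3' ratio (0.189). After the ratio adjustment CUZ1 did not pass either (limma adjusted p = 0.0898), while DSK2 did (0.0429). Cdc48 is the ATPase that pulls ubiquitin-tagged proteins out of complexes. Of 9 genes for it and its cofactors 0 were called higher and 3 lower (33.3%), against 23.9% and 25% of all tested genes. In either direction 48.9% of all tested genes were called. The cofactor genes DOA1 and UBX2 each fell by 0.59 (limma adjusted p = 0.00708 and 0.00316), and UFD2, a ubiquitin chain elongation factor, fell by 0.45 (0.00893). UBX2 was called in all 15 alternatives, while DOA1 was lost without honokiol 1 (0.0616) and UFD2 without honokiol 1 or honokiol 2 (0.082 and 0.0738).

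The genes that make and attach ubiquitin moved in both directions. Of 16 genes for ubiquitin activation, conjugation and ligation 3 were called higher and 2 lower (18.8% and 12.5%, against 23.9% and 25% of all tested genes). Their median difference of -0.039 changed sign without ethanol 1 (0.0070) and with the length trend removed (0.022). UBC1, a conjugating enzyme, was at 11.70 and 11.85 with honokiol and at 11.18 and 11.27 with ethanol. It rose 1.46-fold (0.55 ± 0.08, limma adjusted p = 0.00685), and did not pass without honokiol 2 (0.0606). SSM4, a ligase gene for quality control at the endoplasmic reticulum, rose 1.28-fold (limma adjusted p = 0.0174). SAN1, the nuclear quality control ligase, was outside the rule for named genes and chosen after its values were seen; it rose 1.19-fold (0.0245) and was called in 12 of 16 settings, the main one included. HRD1, the other ligase of the endoplasmic reticulum, fell by 0.28 (limma adjusted p = 0.0251), and TOM1, the ligase gene with the longest reading frame in this list, fell by 0.27 (0.0441).

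SSM4, HRD1 and TOM1 were not called without honokiol 1 (limma adjusted p = 0.124, 0.0997 and 0.175) or honokiol 2 (0.108, 0.174 and 0.214). TOM1 was also lost without ethanol 2, and with the length trend removed (-0.089, limma adjusted p = 0.278). After adjustment for the control 5'/3' ratio HRD1 and TOM1 were not called (limma adjusted p = 0.0946 and 0.227), while SSM4 was (0.0163). Of 4 genes that encode ubiquitin, 1 was called higher (25%, against 23.9% of all tested genes). All 4 differences were positive, as were those of 2759 of the 5449 tested genes. The 4 ran from 0.12 for the polyubiquitin gene UBI4 to 0.27 for RPL40B, a fusion of ubiquitin to a ribosomal protein (limma adjusted p = 0.0365). RPL40B was called in 11 of 16 settings, the main one included, and was lost with the length trend removed (0.18, limma adjusted p = 0.139). Its close paralog RPL40A differed by 0.14 (limma adjusted p = 0.107), and cross-hybridization between them was not tested.

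**Figure D5:**
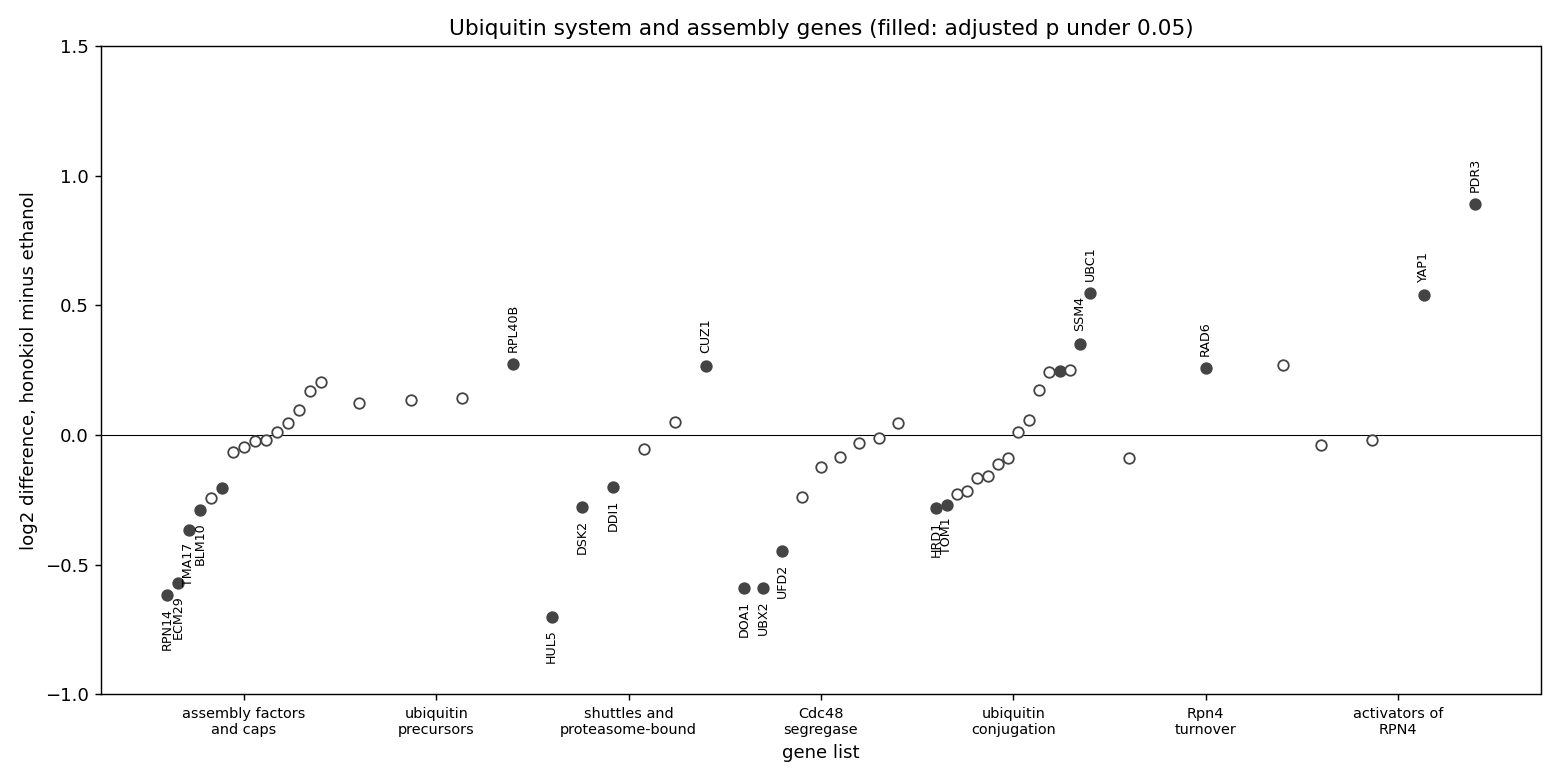
Log2 difference, honokiol minus ethanol, of 57 genes of proteasome assembly, the ubiquitin system and RPN4 control, in 7 lists; filled points have an adjusted p under 0.05. The lists for assembly and for Cdc48 have filled points below 0 and none above, and PDR3 is the highest point.

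Across these 57 genes 8 were called higher and 13 lower, or 36.8% against the 48.9% of all tested genes. The count was 5 without honokiol 1 and 4 without honokiol 2, when 708 and 705 of all genes were called in place of 2663, and 28 without ethanol 1. It was 12 after adjustment for the control 5'/3' ratio.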

How the data were processed

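The values deposited by the authors are linear intensity values for 10928 probe sets on each array. Per the submitters' processing notes they come from RMA, of a version not given in the sources used here. RMA corrects background, normalizes by quantiles and compresses differences of dim probe sets. From the deposited intensities log2 was taken, with no pseudocount. Gene names came from the platform annotation, updated by gene ID through the RefSeq gene table of assembly R64; 5498 named 1 S. cerevisiae gene, and the brightest per gene was used (5449 genes). Each of the 33 genes had 1 probe set, and none carried a mark for shared targets. Background, at log2 4.39, was the 95th percentile of probe sets for another species; the lowest mean among the 33 genes was 10.67.

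limma 3.58.1 in R 4.3.3 (lmFit, eBayes; 2 residual and 2.76 prior degrees of freedom) compared the groups, two-sided, with Benjamini-Hochberg adjustment over 5449 genes and a threshold of 0.05, and was tested on simulated data. With 2 arrays per group the number of arrays limits the precision. Genes named are all 33 members and, of each companion list, at most 4 called genes with the largest absolute difference. The RPN4 regulators and SEM1 are named in any case. NAS2, SAN1, UBI4 and RPL40A are named besides, outside this rule, and are left out of the closing tally over settings. The companion lists held 58 entries for 57 genes, since ADC17 is another name of TMA17. The members and lists were chosen with earlier results of these data known. Coordinates are not printed, as the values name no build, and promoter sequences were not used here.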

Additional observations from a re-analysis of the deposited data

How the results depend on the processing

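RPN4 kept its direction and call in all 15 alternatives (1.06 to 1.13 on leaving out 1 array). The number of the 33 genes called was 5, but 9 with an intensity trend and robust prior (8 higher, 1 lower), 8 with quantile normalization again (8 higher), 2 with all probe sets as features (2 higher) and 2 after adjustment for the control 5'/3' ratio (2 higher). With the gene length trend removed it was 5, of which 1 lower. Leaving out 1 array gave 2 to 8 called (2 to 6 higher, 0 to 2 lower). The core median was 0.13 and the median of all subunits 0.097 with quantile normalization again, the core median -0.0099 with the length trend removed, and the regulatory median 0.051 after adjustment for the control 5'/3' ratio. Leaving out 1 array gave 0.046 to 0.12 for core genes, -0.075 to 0.037 for regulatory genes and 0.017 to 0.050 for all subunits; the regulatory median was 0.037 without ethanol 2. Quantile normalization again moved the median of all genes to -0.032.

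Of the 57 companion genes 21 were called, 9 with all probe sets as features and 12 after adjustment for the control 5'/3' ratio, and 4 to 28 on leaving out 1 array. Over all genes the 2663 calls became 1759 with all probe sets as features (887 lower), and 705 to 3190 on leaving out 1 array (439 to 1634 higher, 264 to 1556 lower). The larger set of features adds mostly probe sets of another species. Without a honokiol array the spread comes from the ethanol pair alone, and without an ethanol array from the honokiol pair alone. Over all genes the SD of the difference between replicate arrays was 0.12 for honokiol and 0.21 for ethanol. The causes of the shifts between settings were not tested. Of 840 values for the 56 other named genes, 751 kept direction and call or stayed uncalled, 77 lost the call, 12 gained it and 0 were called with the opposite sign.

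The labels do not say whether arrays with the same replicate number share a culture day or batch. The replicate differences of both groups correlated at 0.33 over genes, with 2 pairs, too few to settle a pairing. Under the replicate block 4 of the 33 genes were called (RPN13 lost, adjusted p = 0.0569) and 2809 of all genes; RPN4 passed (adjusted p = 0.0027).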
